A study of Mus musculus with 34 samples.

Results

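Kruppel-like factors (KLFs) were followed here through the H3K27 acetylation (H3K27ac) of their loci in mouse monocytes, liver macrophages and cultured macrophages. The genes were Klf2, Klf3, Klf4, Klf6, Klf7, Klf9, Klf10 and Klf13, 8 in all. Their members were the H3K27ac regions that the deposited annotation assigned to one of these genes within 100 kb of its transcription start site. That gave 152 of 84647 regions in the liver table and 133 of 95038 regions in the table of cultured cells, together with the transcription factor peaks that overlapped them.

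KLFs are zinc-finger transcription factors that bind GC-rich and CACCC-type sequences in promoters and enhancers. Klf2, Klf4, Klf6 and Klf7 mostly activate transcription, Klf3 represses through the CtBP corepressors, and Klf9, Klf10 and Klf13 recruit the Sin3A corepressor. In the myeloid lineage Klf4 is known for its part in monocyte differentiation, Klf2 for restraining inflammatory activation, and Klf10 as an early gene of TGF-beta signalling. H3K27ac marks active promoters and enhancers, so its tags report on regulatory DNA and not on transcript levels.

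H3K27ac was measured in 5 groups of 2 libraries each. Ly6C-high blood monocytes came from untreated C57BL/6J mice. Repopulating liver macrophages (RLM) came from Clec4f-cre/Rosa26iDTR mice 24 h after diphtheria toxin, where Clec4f-driven Cre limits the toxin receptor to Kupffer cells and the toxin empties their niche. Kupffer cells (KC), the resident liver macrophages, were untreated. Their sample labels give C57BL/6J, whereas the series description gives Clec4f-Cre/DTR mice. Bone marrow-derived macrophages (BMDM) of C57BL/6J mice were cultured for 4 days and left untreated or exposed for 24 h to the Notch ligand DLL4. Peaks of the nuclear receptor LXR were called in KC of Clec4f-cre mice and in BMDM cultured for 7 days with the LXR agonist GW3965 for 18 h. Peaks of SMAD4, which transmits TGF-beta and BMP signals, and of RBPJ, the DNA-binding partner of Notch, were called in KC nuclei of Clec4f-cre mice and in untreated BMDM. Separate animals or cultures are not stated for the libraries of any group, and p-values then measure only the spread between libraries, which may be technical.

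The liver libraries held 7368619 to 19498952 tags in all regions and the BMDM libraries 20178916 to 27239851. A level is given below in CPM, the tags of a region scaled to a common total over the tested regions, and a gene's summed level adds its regions, of which 77.0% in the liver table overlapped a neighbour. The 10 Kupffer cell marker genes summed to 91.5 to 112 CPM in monocytes, 248 to 254 in RLM and 1800 to 2050 in KC. The 9 monocyte markers summed to 691 to 696, 590 to 596 and 257 to 263 CPM in the same order. Regions of 8 of 10 liver endothelial markers summed to 84.9 to 93.4, 109 to 115 and 215 to 219 CPM, with no region for Tie1 and Oit3. From monocytes to KC 4 of those 8 rose (Stab2, Gpr182, Cldn5 and Pecam1) and 3 fell (Kdr, Eng and Clec4g), with a median log2 difference of 0.08. Regions of 4 of 8 hepatocyte markers summed to 20.4 to 20.5, 25.6 to 26.5 and 68.2 to 70.5 CPM, with no region for Serpina1a, Cps1, Cyp2e1 and Tat. Regions of 3 of 8 lymphocyte markers summed to 53.7 to 73.2, 25.5 to 38.1 and 20.9 to 22.1 CPM. Of these, Cd3d averaged 48.3, 17.9 and 3.44 CPM, and Ms4a1 14.3, 12.4 and 17.3. The monocyte and lymphocyte sums had the same order of groups as Klf4 and Klf13 below. The Kupffer cell, endothelial and hepatocyte sums had the order of Klf10. Regions of 7 of 8 neutrophil markers summed to 42.3 to 52.9 CPM over all liver libraries, and those of 3 of 7 stellate cell markers to 14.9 to 28.6. The part of such cells in the KLF levels was not tested.

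The promoters of Klf2, Klf4 and Klf13 are shown because each lies under SMAD4 peaks in both cell types. A second reason was that the H3K27ac of Klf2 moved differently between the groups from that of Klf4 and Klf13. Each sequence is the 250 bases before the start in RefSeq on GRCm38.p6, read 5′ to 3′ on the gene's strand. Capitals mark matches, on either strand, to a GC box (GGGGCGGGG), a CACCC-type KLF box (GGGNGTGG) or the core of a MEF2 box.
Klf2, chr8:72318812-72319061, plus strand: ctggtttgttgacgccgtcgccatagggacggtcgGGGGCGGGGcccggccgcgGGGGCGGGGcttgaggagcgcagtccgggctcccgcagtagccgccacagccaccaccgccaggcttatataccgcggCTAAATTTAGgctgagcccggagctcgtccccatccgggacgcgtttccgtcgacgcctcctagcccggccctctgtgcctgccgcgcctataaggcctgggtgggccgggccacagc
Klf4, chr4:55532476-55532725, minus strand: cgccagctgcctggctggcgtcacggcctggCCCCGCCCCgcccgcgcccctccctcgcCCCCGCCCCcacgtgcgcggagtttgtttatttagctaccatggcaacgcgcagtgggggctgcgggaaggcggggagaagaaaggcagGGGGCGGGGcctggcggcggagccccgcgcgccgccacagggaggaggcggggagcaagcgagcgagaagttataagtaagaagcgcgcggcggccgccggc
Klf13, chr7:63938916-63939165, minus strand: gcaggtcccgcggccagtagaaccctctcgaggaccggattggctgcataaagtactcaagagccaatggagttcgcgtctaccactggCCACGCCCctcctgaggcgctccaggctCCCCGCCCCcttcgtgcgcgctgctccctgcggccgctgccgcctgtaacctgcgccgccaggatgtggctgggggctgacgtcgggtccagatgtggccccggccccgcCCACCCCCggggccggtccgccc

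The Klf2 window held 2 GC boxes and 1 MEF2 box, which began at base -118 from the start. MEF2 factors are known to drive Klf2 and Klf4 downstream of the kinase ERK5. The Klf4 window held 3 GC boxes and the Klf13 window 1 GC box and 2 CACCC-type boxes. Of 32851 RefSeq promoters with windows of this length, 10.4% held the GC box and 15.9% the CACCC-type box. The MEF2 pattern, with any bases in its middle, was held by 3.2%. Among the 7 members with a promoter sequence, Klf3 also held a GC box and Klf7 a CACCC-type box. None of the 7 held the RBPJ box GTGGGAA, the SMAD palindrome GTCTAGAC, the GC-rich SMAD site GGCGCC or the LXR half-site AGGTCA in this window. These were present in 5.42%, 0.167%, 9.59% and 14.0% of all promoters.

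The first comparison asked how monocytes differed from the macrophages found in the emptied niche 24 h later. Klf2 and Klf9 fell by more than 2-fold in their summed tags, and Klf10 was higher in RLM by less than that. A call required an adjusted p under 0.05 by edgeR's quasi-likelihood test, with Benjamini-Hochberg adjustment over all genes or regions, and at least a 2-fold difference. By this rule 2 of 8 members were lower in RLM, beside 5.8% of all 16749 genes, and 0 of 8 were higher, beside 6.2%. At an adjusted p under 0.05 and any fold, 1 member was higher by edgeR, Klf10 (log2 0.75, SE 0.15), and 5 were lower, with Klf3, Klf4 and Klf13 beside Klf2 and Klf9. At an unadjusted p under 0.05 and any fold 2 members were higher by edgeR. By DESeq2 1 was higher at an adjusted p under 0.05 and any fold, and 0 by the 2-fold rule. The members' median log2 difference was -0.68 and that of all genes 0.07. Among single regions, 45 of 151 tested (29.8%) were lower in RLM beside 9.14% of all regions, and 7 (4.64%) were higher beside 8.57%. Neighbouring regions share tags. With overlapping regions counted once, 23 of 76 were lower and 2 higher.

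The second comparison set resident KC against RLM. By the 2-fold rule Klf2 was called higher, 1 of 8, beside 14.6% of all genes, and 0 of 8 were called lower, beside 12.8%. At an adjusted p under 0.05 and any fold, 4 members were higher in KC by edgeR, Klf2, Klf3, Klf9 and Klf10, the last with a log2 difference of 0.37 (SE 0.14). Klf4 (log2 -0.41) and Klf13 (-0.43) were the 2 that were lower. The same 2 had an unadjusted p under 0.05. By DESeq2 2 members were lower at an adjusted p under 0.05 and any fold, and 0 by the 2-fold rule. Of 151 regions 47 (31.1%) were higher in KC, beside 22.3% of all regions, and 15 (9.93%) were lower, beside 13.9%. In KC against monocytes Klf10 rose while Klf4 and Klf13 fell, which is 1 of 8 higher beside 18.4% of all genes and 2 of 8 lower beside 14.4%. At an adjusted p under 0.05 and any fold, Klf2 (log2 0.44) and Klf6 (0.47) were also higher. Region calls there were 39 of 151 (25.8%) higher beside 24.9%, and 37 (24.5%) lower beside 17.7%. The 3 liver comparisons share their libraries, so their values are given side by side only.

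**Figure D1:**
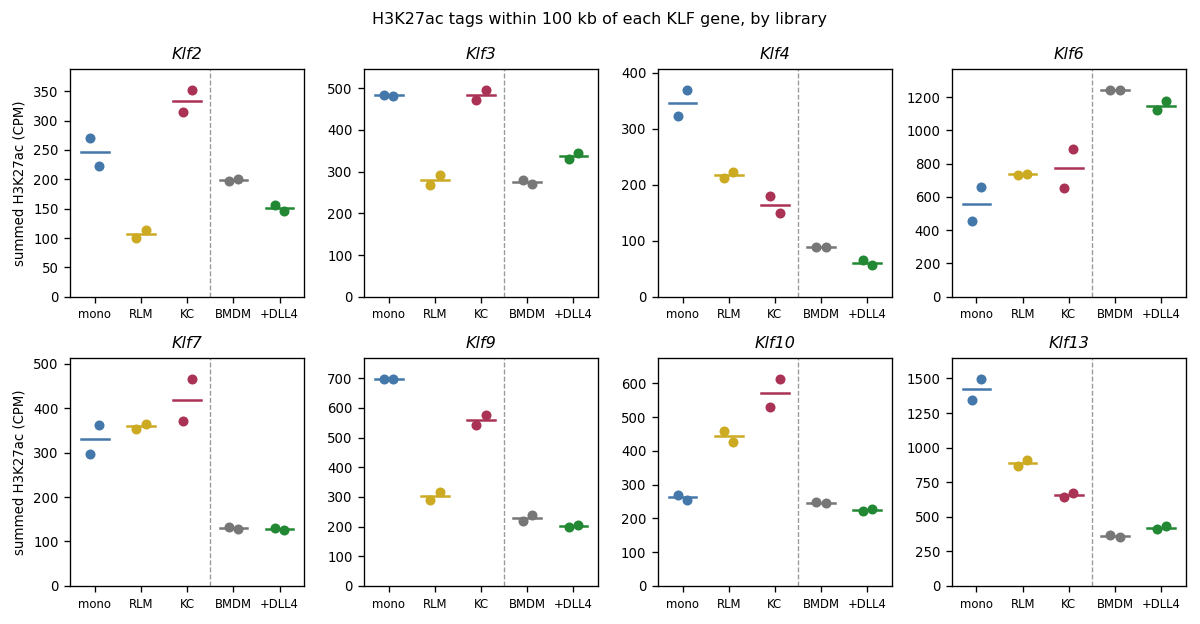
Summed H3K27ac CPM (y axis) within 100 kb of each of 8 KLF genes, 1 point per library and a bar for the group mean, in monocytes, RLM and KC (left of the dashed line) and BMDM without and with DLL4 (right, a table normalized separately). Klf2 lies at 100 and 113 CPM in RLM, below both monocyte and both KC libraries, and Klf13 falls from 1347 and 1498 CPM in monocytes to 640 and 675 in KC.

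Klf2 had a low point in RLM. Its summed level was 270 and 223 CPM in the monocyte libraries, 100 and 113 in RLM, and 314 and 353 in KC. Both RLM libraries lay below all others, and the groups did not overlap. The log2 difference was -1.20 (SE 0.15) from monocytes to RLM and 1.64 (SE 0.16) from RLM to KC. KC against monocytes was not called at 0.44 (SE 0.15, adjusted p = 0.0139 by edgeR).

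The Klf2 promoter region (chr8:72317992-72319992, mm10) held 31.8 and 21.3 CPM in monocytes, 13 and 16.5 in RLM and 31.7 in each KC library. RLM libraries were again the lowest. The rise from RLM to KC was called (log2 1.10, SE 0.24, adjusted p = 0.00013 by edgeR) and the step from monocytes to RLM was not (-0.84, SE 0.24, adjusted p = 0.00588). Both lay near the 2-fold limit. The rise was 0.96 with libraries scaled by their totals and 0.97 without RLM replicate 1 or with the 4 compared libraries fitted alone, and the first step was -1.11 without monocyte replicate 2 and -1.03 without RLM replicate 2. The flank 1758 bp upstream rose most, from 3.15 and 2.95 CPM in RLM to 14.4 and 22.5 in KC (log2 2.61, SE 0.33). In the gene body, the region 1318 bp from the start held 14.6 and 14.4 CPM in monocytes, 7.75 and 10.3 in RLM and 32.5 and 36.4 in KC, and was the Klf2 region that rose most from monocytes to KC (log2 1.25, SE 0.24).

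Regions assigned to Klf2 did not all follow its promoter. A region 23200 bp upstream held 20.0 and 17.9 CPM in monocytes, 9.33 and 12.4 in RLM and 33.3 and 50.6 in KC, and exceeded monocytes in KC by 1.15 on the log2 scale (SE 0.24). Downstream, 7 regions between 31120 and 46940 bp from the start lie in introns of the neighbouring gene Eps15l1. The one at 31120 bp fell most into RLM, from 17.6 and 14.3 CPM to 3.68 and 2.64 (log2 -2.35, SE 0.33), and held 5.84 and 5.40 in KC. The one at 35393 bp (chr8:72353455-72355455) held 7.19 and 5.28 CPM in monocytes, 3.28 and 2.44 in RLM and 0.358 and 0.293 in KC. It fell by 4.25 on the log2 scale from monocytes to KC (SE 0.54, adjusted p = 2.66e-10 by edgeR) on 151 and 8 tags in the 2 groups. So the Klf2 neighbourhood held regions that recovered in KC and regions that were nearly empty there.

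Klf4 was lower in KC than in monocytes. Its summed level was 323 and 370 CPM in monocytes, 212 and 223 in RLM and 180 and 149 in KC, with no overlap between groups. The difference between KC and monocytes was -1.08 on the log2 scale (SE 0.15), and it fell just short of 2-fold, at -0.98, without monocyte replicate 2 or without KC replicate 2. The promoter region (chr4:55531541-55533541) held 98.9 and 106 CPM in monocytes, 61.2 and 61.6 in RLM and 47.5 and 42.6 in KC, a fall by 1.19 on the log2 scale from monocytes to KC (SE 0.20, adjusted p = 3.17e-07 by edgeR). A region 17620 bp downstream fell most, from 7.03 and 14.0 CPM in monocytes to 1.79 and 0.645 in KC (log2 -3.26, SE 0.43). All 6 tested Klf4 regions within 3 kb of the start were lower in KC than in monocytes, beside 17.7% of all regions at any distance. With overlapping Klf4 regions counted once, 6 of 10 at any distance were lower. Into RLM the largest fall was 91083 bp upstream, from 15.7 and 19.2 CPM in monocytes to 2.36 and 5.59 (log2 -2.10, SE 0.33), with 6.32 and 8.74 in KC. A sparse region 59239 bp upstream held 0.661 and 0.330 CPM in monocytes and 2.86 and 1.58 in KC, on 12 and 51 tags. It was called higher in KC (log2 2.10, SE 0.68), but not without monocyte replicate 2 (1.70) or without KC replicate 1 (1.68).

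Klf6, induced on injury and inflammatory activation, had no called difference in its total. It held 458 and 657 CPM in monocytes, 734 and 736 in RLM and 655 and 890 in KC. The 2 monocyte libraries differed from each other by more than RLM did. Its promoter region (chr13:5860356-5862356) held 82.1 and 121 CPM in monocytes, 113 and 109 in RLM and 72.8 and 113 in KC, with overlapping groups. The 3′ end of the gene did change. The region 8608 bp from the start, in the last exon (chr13:5869097-5871097), held 3.22 and 2.48 CPM in monocytes, 6.17 and 6.60 in RLM and 15.4 and 14.0 in KC. It rose by 2.36 on the log2 scale from monocytes to KC (SE 0.33, adjusted p = 3.41e-09 by edgeR), and both steps were called. The overlapping region at 9030 bp rose most into RLM, from 3.14 and 3.05 CPM to 8.28 and 9.14 (log2 1.49, SE 0.33).

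Downstream of Klf6 the values went down instead. The region at 25512 bp held 5.54 and 6.85 CPM in monocytes, 4.07 and 1.22 in RLM and 1.19 and 1.88 in KC, a fall by 1.95 on the log2 scale from monocytes to KC (SE 0.44). Its step into RLM was called at -1.27 (SE 0.43), but not without monocyte replicate 2 (-1.11), without RLM replicate 2 (-0.61) or by DESeq2 (-1.26). The region at 50180 bp held 1.97 and 1.83 CPM in RLM and 0.596 and 0.528 in KC, on 33 and 14 tags. That difference (log2 -1.75, SE 0.71, adjusted p = 0.0386 by edgeR) was lost without any 1 of the 4 libraries compared and by DESeq2, with adjusted p-values of 0.0889 to 0.212.

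Klf7, a widely expressed member best known from neurons, had single regions that rose strongly while its total was not called. The summed level was 297 and 363 CPM in monocytes, 353 and 365 in RLM and 372 and 466 in KC. The promoter region (chr1:64120687-64122687) held 109 and 137 CPM in monocytes, 116 and 123 in RLM and 67.2 and 87.3 in KC, and was not called. The first intron, 1383 bp from the start (chr1:64119006-64121006), held 3.80 and 4.21 CPM in monocytes, 15.1 and 16.4 in RLM and 43.9 and 59.1 in KC.

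This intronic region rose at both steps, by 1.97 (SE 0.27) and 1.71 (SE 0.24) on the log2 scale. Far upstream, 5 regions between 68304 and 77626 bp from the start rose in KC. The one at 70373 bp (chr1:64190762-64192762) held 1.16 and 0.660 CPM in monocytes, 3.02 and 2.44 in RLM and 11.1 and 20.9 in KC. Its log2 difference between KC and monocytes was 4.14 (SE 0.40, adjusted p = 1.88e-14 by edgeR), on 449 and 22 tags. The one at 77626 bp rose most from RLM to KC, from 4.99 and 1.93 CPM to 20.1 and 30.9 (log2 2.93, SE 0.34). Of 12 tested Klf7 regions 8 were higher in KC than in monocytes, beside 24.9% of all regions. The 1 lower region, beside 17.7%, was at 912 bp upstream. This promoter flank held 102 and 125 CPM in monocytes, 102 and 105 in RLM and 48.0 and 63.8 in KC (log2 -1.01, SE 0.20). It fell short of 2-fold without monocyte replicate 2 (-0.84), without KC replicate 1 (-0.80) and, barely, without either RLM replicate.

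**Figure D2:**
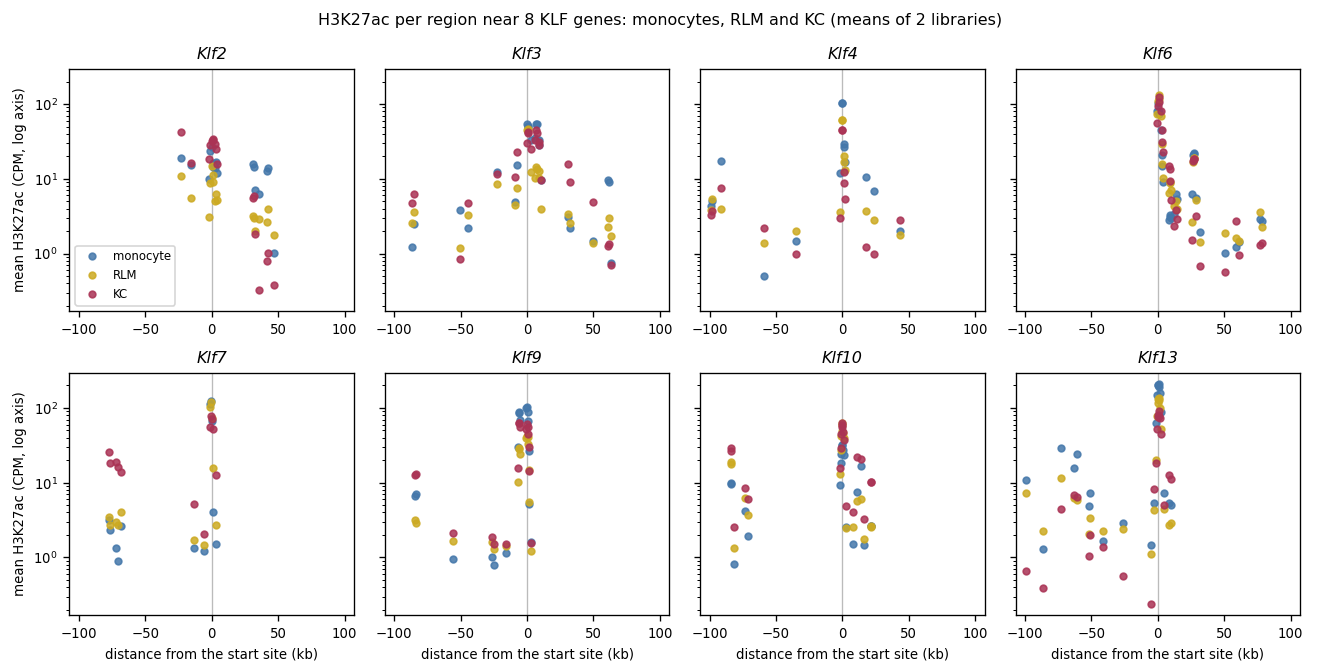
Mean H3K27ac CPM of 2 libraries (y axis, log scale) of each tested region against its distance from the start site in kb (x axis) for 8 KLF genes in monocytes, RLM and KC. KC points lie above the others from 68304 to 77626 bp upstream of Klf7, and below them from 32802 to 46940 bp downstream of Klf2 and at the 2 regions farthest upstream of Klf13.

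Klf3 changed in its first intron, while its promoter was not called. Its summed level was 485 and 481 CPM in monocytes, 267 and 291 in RLM and 471 and 497 in KC, so RLM lay below both other groups while monocytes and KC overlapped. The log2 differences of -0.79 (SE 0.14) and 0.79 (SE 0.14) had adjusted p-values under the threshold and did not reach 2-fold. The promoter region (chr5:64802170-64804170) held 52.8 and 54.2 CPM in monocytes, 44.7 and 44.4 in RLM and 36.2 and 24.9 in KC. Without KC replicate 1 it was called lower in KC than in monocytes, at -1.07.

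In the intron 7668 bp from the start (chr5:64810191-64812191) the values were 57.1 and 51.4 CPM in monocytes, 11.7 and 15.4 in RLM and 35.4 and 47.3 in KC. That region fell by 1.99 on the log2 scale into RLM (SE 0.23, adjusted p = 8.81e-11 by edgeR) and rose by 1.61 into KC (SE 0.23, adjusted p = 1.7e-08 by edgeR). All 7 intronic regions from 2838 to 10157 bp were lower in RLM than in monocytes and higher in KC than in RLM. Most of these intervals overlap a neighbour and share its tags. Of all 23 tested Klf3 regions, 11 were called lower in RLM than in monocytes, beside 9.14% of all regions. Those called higher in KC than in RLM numbered 12, beside 22.3%. With overlapping Klf3 regions counted once, 6 of 12 were lower in RLM than in monocytes and 6 higher in KC than in RLM. A region 30953 bp downstream held 2.64 and 3.47 CPM in monocytes, 1.45 and 5.38 in RLM and 14.9 and 16.2 in KC. It rose by 2.35 on the log2 scale from monocytes to KC (SE 0.35), whereas a region at 61287 bp fell by 2.92 (SE 0.40), and by 2.07 (SE 0.39) already into RLM. The region at 61950 bp held 10.1 and 8.26 CPM in monocytes, 1.97 and 4.06 in RLM and 0.954 and 1.70 in KC. Its step from RLM to KC (log2 -1.13, SE 0.44, adjusted p = 0.0318 by edgeR) was lost without RLM replicate 2 (-0.46), without KC replicate 1 (-0.81) and by DESeq2 (-1.16).

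Klf9, a glucocorticoid-responsive gene, fell from monocytes to RLM. Its summed level was 698 CPM in each monocyte library, 288 and 318 in RLM and 542 and 575 in KC, and the groups did not overlap. The log2 difference between RLM and monocytes was -1.20 (SE 0.14), and the difference of 0.88 (SE 0.14) between KC and RLM did not reach 2-fold. The promoter region (chr19:23140103-23142103) held 96.4 and 110 CPM in monocytes, 44.0 and 41.2 in RLM and 55.9 and 65.2 in KC. A region 6173 bp upstream (chr19:23134053-23136053) held 88.5 and 83.2 CPM, 23.6 and 33.3 CPM, and 55.1 and 69.2 CPM in the same order. This upstream region fell by 1.59 into RLM (SE 0.21, adjusted p = 5.59e-09 by edgeR) and rose by 1.12 into KC (SE 0.21, adjusted p = 7.03e-06 by edgeR), while the promoter's difference of 0.51 (SE 0.20) was not called. In the intron, the region 1727 bp from the start held 6.61 and 3.88 CPM in monocytes, 4.99 and 5.99 in RLM and 14.7 and 13.7 in KC, and rose by 1.43 on the log2 scale from monocytes to KC (SE 0.31).

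Klf10 gained acetylation from monocytes to KC. Its summed level was 270 and 256 CPM in monocytes, 459 and 427 in RLM and 529 and 614 in KC, in separate ranges. The log2 difference between KC and monocytes was 1.12 (SE 0.15), and it was 0.97 without KC replicate 2 and 0.83 when libraries were scaled by their totals, both short of 2-fold. The promoter region (chr15:38299819-38301819) held 34.4 and 28.8 CPM in monocytes, 63.5 and 55.8 in RLM and 52.2 and 72.7 in KC (log2 0.99 between KC and monocytes, SE 0.21, not called). It passed 2-fold without monocyte replicate 1 (1.07), without KC replicate 1 (1.23) and, barely, without either RLM replicate (1.01 and 1.00). Distal regions passed: 10 of 11 tested beyond 3 kb were higher in KC than in monocytes, and 0 of 9 within 3 kb were called. Of all regions at any distance 24.9% were called higher. With overlapping Klf10 regions counted once, 7 of 10 were higher. The region 21708 bp downstream (chr15:38277192-38279192) held 2.73 and 2.48 CPM in monocytes, 2.10 and 2.95 in RLM and 11.1 and 9.21 in KC (log2 1.95 between KC and monocytes, SE 0.36, adjusted p = 3.21e-06 by edgeR). Against this, the region 14104 bp downstream was the 1 Klf10 region that fell into RLM, from 16.2 and 17.4 CPM to 5.91 and 6.30 (log2 -1.46, SE 0.28), and it rose to 18.4 and 23.7 in KC (log2 1.79, SE 0.28).

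Klf13, known as a regulator of the chemokine gene Ccl5 in lymphocytes, fell from monocytes to KC. It held 1347 and 1498 CPM in monocytes, 866 and 907 in RLM and 640 and 675 in KC, without overlap. The log2 difference between KC and monocytes was -1.11 (SE 0.14). The promoter region (chr7:63938047-63940047) held 184 and 216 CPM in monocytes, 115 and 121 in RLM and 70.8 and 80.1 in KC (log2 -1.41, SE 0.19, adjusted p = 1.25e-09 by edgeR). Of 22 tested regions 16 were lower in KC than in monocytes, beside 17.7% of all regions. With overlapping regions counted once, 9 of 12 were lower.

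The most distant Klf13 region, 99235 bp upstream (chr7:64037150-64039150), held 9.84 and 12.2 CPM in monocytes, 8.80 and 5.89 in RLM and 0.954 and 0.352 in KC. Its drop came between RLM and KC (log2 -3.65, SE 0.46, adjusted p = 4.14e-10 by edgeR), on 125 and 14 tags. By contrast, a region in the Klf13 intron 8600 bp from the start rose from 5.87 and 4.79 CPM in monocytes and 1.97 and 3.45 in RLM to 10.0 and 15.4 in KC (log2 1.27 against monocytes, SE 0.32). It was 0.92 and not called without KC replicate 2. The largest fall into RLM was 60907 bp upstream, from 25.8 and 23.3 CPM to 7.49 and 4.17 (log2 -2.09, SE 0.30), with 5.48 and 7.33 in KC.

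DLL4 was tested in BMDM to ask what a Notch ligand does to these regions. No member's summed tags were called, 0 of 8 in either direction, beside 2.6% of all genes higher and 1.28% lower. At an unadjusted p under 0.05 by edgeR 2 members were higher and 5 lower. DESeq2 called 0 by the 2-fold rule, and had 2 higher and 4 lower at an adjusted p under 0.05 and any fold. At an adjusted p under 0.05 and any fold, Klf3 (log2 0.29, SE 0.05) and Klf13 (0.23, SE 0.05) were higher. Klf2 (-0.40, SE 0.06), Klf4 (-0.54, SE 0.09), Klf6 (-0.12, SE 0.04) and Klf9 (-0.18, SE 0.06) were lower. Among regions, 6 of 130 (4.62%) were higher beside 4.89% of all regions and 3 (2.31%) lower beside 2.64%, shares close to the background.

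Of the 6 regions that rose with DLL4, 5 were Klf13 regions upstream of its start. They were 5 of 21 tested Klf13 regions, beside 4.89% of all regions. With overlapping Klf13 regions counted once, 3 of 11 rose. The region 72972 bp upstream (chr7:64010887-64012887) held 6.17 and 6.41 CPM untreated and 20.5 and 24.6 with DLL4 (log2 1.84, SE 0.15, adjusted p = 1.19e-11 by edgeR). The region 62813 bp upstream held 2.96 and 3.76 CPM untreated and 11.5 and 10.7 with DLL4 (log2 1.71, SE 0.22). The Klf13 promoter held 45.2 and 43.6 CPM untreated and 41.8 and 47.5 with DLL4. RBPJ peaks of untreated BMDM overlay the same 2 upstream sites, at 48.8 and 62.3 and at 63.3 and 52.6 tags per 10000000. Such an overlap was common, since the 2 RBPJ lists covered 77.4% and 76.5% of all regions in this table and 81.2% and 85.7% of the KLF regions.

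The sixth rise was Klf3 at 30971 bp, from 3.21 and 2.28 CPM to 6.74 and 5.42 (log2 1.16, SE 0.28, adjusted p = 0.00187 by edgeR). It was 0.93 and short of 2-fold without untreated replicate 2. Klf4 lost acetylation inside the gene. The region 1010 bp from the start (chr4:55530465-55532465) held 7.63 and 9.70 CPM untreated and 2.32 and 2.00 with DLL4 (log2 -2.01, SE 0.26, adjusted p = 1.5e-07 by edgeR). The one at 2104 bp, which overlaps it, fell by 1.94 (SE 0.35). The Klf4 promoter held 18.3 and 19.7 CPM untreated and 13.2 and 11.5 with DLL4, a difference of -0.63 (SE 0.14) that was not called. A region 14147 bp downstream of the Klf6 start fell from 24.9 and 25.3 CPM to 13.6 and 9.80 (log2 -1.10, SE 0.14, adjusted p = 1.07e-07 by edgeR), and by 0.88 without DLL4 replicate 2, which is short of 2-fold.

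None of the 8 promoter regions was called with DLL4. Klf2 held 16.1 and 20.0 CPM untreated and 13.5 and 12.4 with DLL4 (log2 -0.49, SE 0.14), and Klf3 38.4 and 39.0 against 44.1 and 49.2 (log2 0.27, SE 0.08), without overlap in either. Klf6 held 92.2 and 99.0 CPM against 87.6 and 96.2, Klf7 49.5 and 47.0 against 49.1 and 47.1, and Klf9 23.1 and 31.4 against 25.1 and 23.5, and these ranges overlapped. Klf10 held 34.1 and 35.8 CPM untreated and 32.0 in each DLL4 library (log2 -0.13, SE 0.09).

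**Figure D3:**
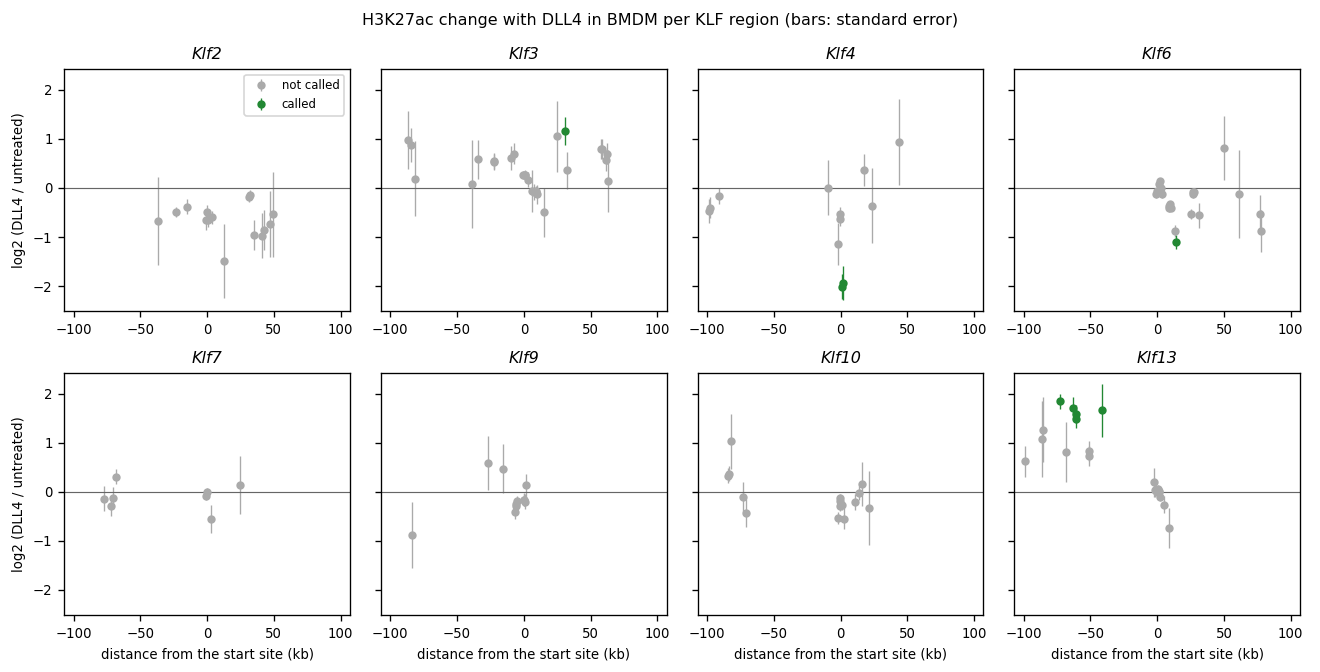
Log2 ratio of H3K27ac with DLL4 to untreated BMDM (y axis, bars are standard errors) for each tested region against its distance from the start site in kb (x axis), 2 libraries per group, with called regions in green. Klf13 carries 5 of the 6 called increases, and Klf4 2 of the 3 called decreases. With overlapping regions counted once, Klf13 keeps 3 increases and Klf4 1 decrease.

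Factor peaks over the KLF regions fell into 161 loci. A peak's value is the authors' normalized tag count per 10000000 tags, and it exists only where the authors' caller accepted a peak, so a blank is not a 0 and no test was made. LXR had a peak in at least 1 library at 92 loci in KC and 75 in BMDM with GW3965. Its lists covered 73.0% and 65.8% of the KLF regions of the liver table in KC, beside 54.6% and 49.0% of all regions, and 52.6% and 56.6% beside 47.0% and 39.8% in BMDM. SMAD4 had one at 73 loci in KC nuclei and 73 in BMDM. Its shares were 66.4% and 55.3% beside 51.3% and 39.7% in KC nuclei, and 57.9% and 45.4% beside 45.1% and 36.9% in BMDM. RBPJ had one at 44 loci in KC nuclei and 108 in BMDM, with 40.1% and 32.2% beside 22.6% and 18.2%, and 74.3% and 77.0% beside 75.6% and 74.9%. The RBPJ lists of KC nuclei were shorter over the whole genome, with 13394 and 11277 peaks against 80480 and 78976 in BMDM, and their median peak values were 6.8 and 6.1 against 21.7 in each BMDM list.

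SMAD4 values were higher in KC nuclei than in BMDM at several KLF loci, shown because their values in KC nuclei were high. Of all KLF loci, 11 had a SMAD4 peak in both lists of KC nuclei and in no BMDM list, and 6 the reverse. The highest locus in KC nuclei lay in a Klf10 intron 1465 bp from the start. It had 258.7 and 222.3 tags in KC nuclei and 65.5 and 54.6 in BMDM. The Klf13 promoter peak had 183.2 and 207.9 tags in KC nuclei and 38.6 and 29.4 in BMDM. The Klf3 promoter locus had 206.9 and 161.3 tags against 43.1 and 61.8, but its peaks in the 2 lists of KC nuclei did not overlap each other. The Klf10 promoter locus had 165.8 and 153.5 tags against 67.3 and 89.0. The median SMAD4 peak had 17.9 and 37.1 tags in the lists of KC nuclei and 38.6 and 42.4 in those of BMDM. Loci picked for high values in KC nuclei cannot show whether KLF loci depart from these medians.

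The Klf4 promoter had SMAD4 values of 96.1 and 79.3 in KC nuclei and 35.0 and 43.8 in BMDM. Klf2 went the other way in tag counts. At its locus 1253 bp upstream SMAD4 had 56.0 and 49.3 tags in KC nuclei and 149.8 and 151.5 in BMDM. At the promoter it had 32.7 and 41.0 against 78.1 and 59.6. The fold over input of these promoter peaks had the reverse order, with 52.9 and 15.58 in KC nuclei and 8.53 and 4.38 in BMDM. Klf6 loci 10098 and 14169 bp from the start had SMAD4 peaks in both BMDM lists and in neither list of KC nuclei. Their BMDM values were 73.6 and 101.3 tags at the first and 108.6 and 46.7 at the second. RBPJ peaks over the Klf2 promoter window were found in both BMDM lists, at 106.1 and 90.9 tags, and in neither list of KC nuclei.

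**Figure D4:**
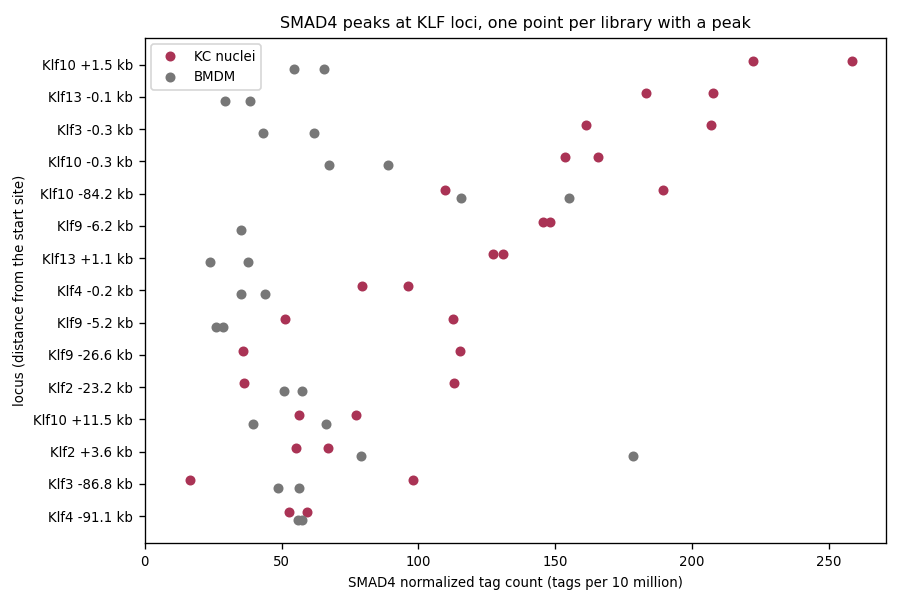
SMAD4 normalized tag count per 10000000 tags (x axis) at the 15 KLF loci with the highest mean in KC nuclei among those with a peak in both KC libraries, labelled by gene and distance from the start (y axis), 1 point per library with a peak. KC nuclei exceed BMDM at the Klf10, Klf13, Klf3 and Klf4 promoters, and BMDM exceed KC nuclei at Klf2 +3.6 kb. This choice of loci favours KC nuclei, and loci with a peak in BMDM alone cannot appear.

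Several loci carried every factor. The Klf10 locus 84212 bp upstream had a peak in all 12 lists, with LXR at 160.7 and 64.1 tags in KC and SMAD4 at 189.5 and 109.8 in KC nuclei. H3K27ac there, in the region at 84200 bp, was 8.02 and 11.8 CPM in monocytes, 18.7 and 18.8 in RLM and 24.3 and 33.7 in KC. At Klf9, a locus 84190 bp upstream had peaks in all 6 KC lists and in no BMDM list. LXR had 75.2 and 94.1 tags there, SMAD4 59.7 and 47.1 and RBPJ 10.7 and 12.1. H3K27ac in the region 83730 bp upstream rose from 1.84 and 3.96 CPM in RLM to 13 and 12.7 in KC (log2 2.11, SE 0.40, adjusted p = 1.51e-05 by edgeR). In monocytes it was 11.1 and 2.89, so the monocyte libraries spanned most of that range. LXR was profiled with agonist in BMDM and without in KC, so its 2 groups differ in treatment as well as in cell type.

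Among the other KLF and SP family genes, 14 of 18 were tested in liver. Klf15 was the 1 gene that rose, from 2.12 CPM in monocytes and 4.04 in RLM to 34.0 in KC (log2 3.98 against monocytes, SE 0.31). Sp3, a GC-box-binding relative, fell from 835 to 389 CPM (log2 -1.10, SE 0.14), and Klf5 and Klf8 were the other 2 that fell from monocytes to KC. That is 1 of 14 higher beside 18.4% of all genes, and 3 lower beside 14.4%. None of the 14 was called between monocytes and RLM, beside 6.2% of all genes higher and 5.8% lower. The list's median there was 0.03 beside 0.07 for all genes. Between RLM and KC 1 rose and 1 fell, beside 14.6% and 12.8% of all genes. With DLL4 0 of 11 tested was called, beside 2.6% higher and 1.28% lower. Of 16 genes of upstream regulators, corepressors and targets, 3 rose and 2 fell from monocytes to KC, beside 18.4% and 14.4% of all genes. Their median was -0.11 beside -0.08 for all genes. From monocytes to RLM 2 rose and 3 fell, beside 6.2% and 5.8% of all genes. From RLM to KC 1 rose and 2 fell, beside 14.6% and 12.8%. The 3 that rose from monocytes to KC were Wwp1 (log2 1.45, SE 0.17), Map2k5 (1.26, SE 0.23) and Foxo1 (1.04, SE 0.16). Mef2c fell from 237 to 19.8 CPM (log2 -3.60, SE 0.19), and Thbd, a KLF2 target that encodes thrombomodulin, from 97.7 to 22.4 (log2 -2.14, SE 0.18). Mapk7, which encodes ERK5, fell from monocytes to RLM (163 to 73.8 CPM, log2 -1.14, SE 0.16), while Map2k5 (1.08, SE 0.23) and Wwp1 (1.02, SE 0.17) rose.

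The genes most like each member over the 6 liver libraries were ranked by the root-mean-square difference of centred log2 levels among 8897 genes with a mean of at least 20 CPM. For Klf13 they were Sp3 and Tnip3, each at 0.04. Klf3 was closest to Rgs3 and Dnali1 (0.04 each), and Klf9 to Anapc15 (0.05) and Slc2a6 (0.08). Klf2 was closest to Mir7681 (0.08) and Zfp446 (0.10), Klf4 to Galnt11 (0.06) and Lactb (0.07), and Klf10 to 2810408I11Rik and Ranbp10 (0.06 each). Klf6 was closest to Ly96 (0.06) and Gm5617 (0.08), and Klf7 to Gm4285 and Clec2d (0.04 each). These values are descriptions and carry no test.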

How the data were processed

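The series holds 34 samples, of which 22 have values here and 12 are inputs. The authors deposited 2 tables of raw H3K27ac tag counts per 2000 bp region on mm10, and per the file headers 12 HOMER peak lists. In those lists the authors give a normalized tag signal per 10000000 tags, a findPeaks score (not used in the text) and a fold ratio over input, with at least 4-fold over input and an FDR of 0.001 required. The submitters' processing notes name Bowtie2 and HOMER.

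Counts were tested with edgeR 4.0.16 (R 4.3.3; TMM, its filter on low counts, robust quasi-likelihood fit, all groups of a table together), per region and summed per gene. Regions numbering 80982 (liver) and 82089 (BMDM) were tested; 1 of 152 and 3 of 133 KLF regions were not. The tables were normalized separately. The test was first tested on simulated data. DESeq2 1.42.0 was an alternative. Peaks had to overlap a KLF region.

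The members and lists were chosen with earlier results of these data known. By rule, every member, its region nearest the start and its largest called region in each direction are named; other regions were chosen after their values were seen. No promoter sequence was used for Klf10. The DLL4 calls of the list of KLF regulators and targets are not reported here. LXR replicate 2 in KC was paired, per the file headers, with an input named for a NASH diet. SMAD4 replicate 2 and RBPJ replicate 1 of KC nuclei were called against the same input, so those lists are not fully separate, and the headers of LXR replicates 1 and 2 in BMDM name replicates 2 and 3.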

Additional observations from a re-analysis of the deposited data

How the results depend on the processing

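No called result changed direction in any setting run. With a fold minimum of 1.5 the calls of KLF regions became 18 higher for RLM against monocytes (11.2% of all regions), 23 lower for KC against RLM (17.3%), and 12 higher (8.46%) and 9 lower (5.46%) for DLL4. Gene calls became 1 higher (12.8% of all genes) and 5 lower (13.7%) for RLM against monocytes and 3 higher (23.7%) for KC against RLM. With overlapping regions counted once there were 2 higher and 23 lower regions for RLM against monocytes and 23 higher for KC against RLM. Counted the same way, there were 22 higher and 21 lower for KC against monocytes, and 4 higher and 1 lower for DLL4. Scaling by total counts gave 0 members higher for KC against monocytes (13.9% of all genes) and 5 regions lower for DLL4 (3.21%). It moved the median gene from -0.084 to -0.373 for KC against monocytes and from -0.069 to -0.396 for KC against RLM. All genes then split into 2324 higher and 3661 lower, and 1549 and 3528, in place of 3084 and 2411, and 2444 and 2142.

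Leaving out 1 library at a time gave these ranges for regions: 6 to 10 higher and 40 to 43 lower for RLM against monocytes, 40 to 47 and 8 to 15 for KC against RLM (8 without KC replicate 2, beside 6.4% of all regions), 27 to 43 and 35 to 36 for KC against monocytes, and 5 to 7 and 3 to 6 for DLL4 (6 without DLL4 replicate 1, beside 2.56%). For genes it gave 0 to 1 higher (Klf10 lost without KC replicate 2) and 1 to 2 lower (Klf4 lost) for KC against monocytes. With 1 library left, it is assumed to vary like the other groups.

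Loci with a peak in both libraries numbered 49 (LXR, KC), 39 (LXR, BMDM), 44 (SMAD4, KC nuclei), 33 (SMAD4, BMDM) and 18 (RBPJ, KC nuclei). Of the 44 RBPJ loci with a peak in at least 1 library of KC nuclei, 19 were left at 8-fold over input. With 1 library left out, loci with a peak in the other numbered 66 to 75, 54 to 60, 49 to 68, 44 to 62 (44 without replicate 1), 27 to 35 (27 without replicate 1) and, for RBPJ in BMDM, 93 to 96.

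Same-numbered libraries did not deviate together (correlations of -0.0374 to 0.0597), so numbers were not taken as pairs. With a replicate block, region calls were 6 higher and 43 lower, 46 and 15, 38 and 36, and 6 and 3 in the 4 comparisons, and gene calls did not change in number.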
